A study of Mus musculus with 10 samples.

Results

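The genes described here encode the interstitial matrix of the kidney and mark the cells that make it. They were the rows of the count table whose symbol stood in a list of 48 genes covering interstitial collagens, elastic fiber and microfibril genes, proteoglycans, adhesive glycoproteins, crosslinking enzymes, matrix proteases with their inhibitors, and fibroblast, pericyte and contractile genes. The table held 46 of the 48 among its 13299 genes, and Mfap4 and Postn were not analysed here. All 46 passed the filter on low values, which kept genes with at least 5 normalized counts in at least 5 of the 10 samples.

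The samples were whole kidneys of old mice (1.5 years), 5 Rragc S74N/+ and 5 Rragc +/+. The S74N/+ mice carried 1 germline knock-in copy of Rragc, in every cell of the body, in which a serine of the RagC GTPase was replaced by asparagine (S74N), a change that mimics the GDP-bound, active form of RagC and raises signaling through the growth regulator mTORC1. The +/+ mice were wild type, and the labels name no treatment and no sex for either group. RNA was read from the 3′ ends of polyadenylated transcripts (QuantSeq), so a normalized count is a number of 3′ end reads divided by the sample's size factor. The study counts n as animals, so the samples were taken as kidneys of separate mice, and the p-values measure the spread between them.

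Interstitial matrix fills the space between tubules and capillaries. Fibrillar collagens carry tensile load, microfibrils and elastic fibers give recoil and hold latent TGFβ, proteoglycans and glycoproteins link these networks to cells, and lysyl oxidases crosslink them. In the kidney many of these genes are transcribed by fibroblasts and pericytes, though not by them alone. Accumulation of the matrix is the hallmark of interstitial fibrosis.

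Type I collagen, fibronectin and the fibroblast receptor Pdgfra were higher in S74N/+ kidneys. The 5 proteoglycans among the members, the type V collagen chains and the contractile gene Acta2 did not pass the test. By limma on log2(normalized count + 1), 7 of the 46 members (15.2%) had an adjusted p under 0.05, compared with 6.03% of the 13236 genes tested. Of these, 6 rose (Col1a1, Col1a2, Col12a1, Ltbp2, Fn1 and Pdgfra), where 3.45% of all tested genes were called higher, and 1 fell (Ltbp4). The estimate was above 0 for 30 members and below 0 for 16, with a median log2 fold change of 0.29, compared with -0.01 over all tested genes. At an unadjusted p under 0.05 there were 18 members (39.1%), compared with 25.4% of all genes. For 6 members the normalized counts of the 2 genotypes did not overlap in any sample (5 higher and 1 lower in S74N/+, 13.0%), compared with 8.16% of all genes. On the reads recovered from the table, DESeq2 called 13 members (28.3%), 12 of them higher, compared with 10.2% of all genes, and edgeR called 8 (17.4%), compared with 6.3%. After scaling to equal library totals the members called were 8 higher and 0 lower, and all genes 718 higher and 225 lower, compared with 457 and 341 with the deposited size factors. In whole tissue, more cells of a type and more RNA per cell cannot be told apart, and this holds for every difference given here.

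**Figure D1:**
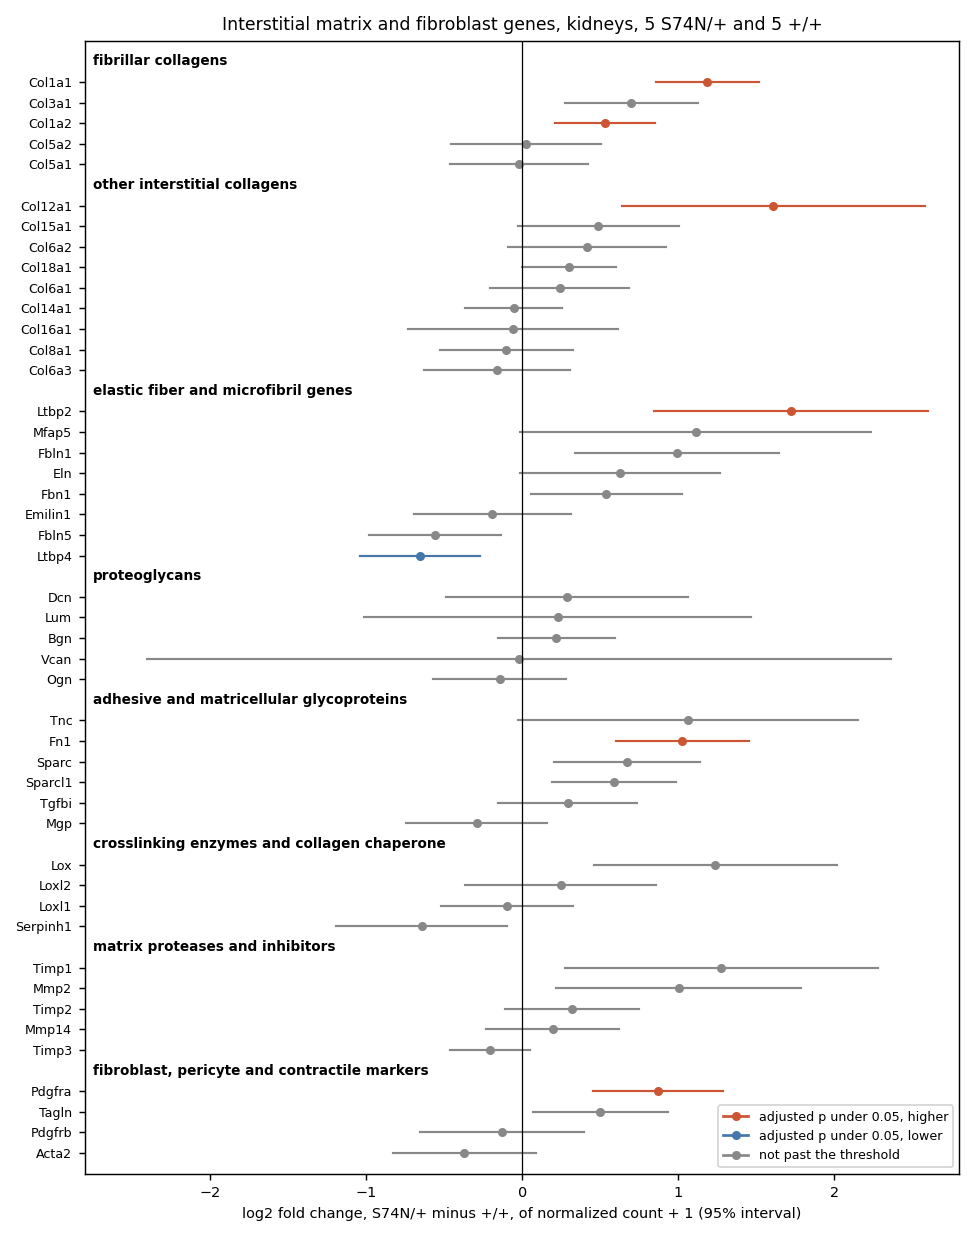
Log2 fold change (S74N/+ minus +/+, on log2 of normalized count + 1) of the 46 tested members, grouped by role, with points for the estimate and lines for the 95% interval from limma. The 6 members that rose are in orange and Ltbp4, which fell, in blue, and the remaining 39 in grey include both higher and lower estimates.

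The depth was 4488493 to 5797251 reads per sample. Mitochondrial genes took 37.4 to 38.0% of the reads in 4 +/+ kidneys and 35.8% in +/+ replicate 3, compared with 33.8 to 36.8% in S74N/+ kidneys, and the sums of normalized counts were likewise 5001060 to 5087150 in those 4, 4576640 in +/+ replicate 3 and 4473981 to 4847611 in S74N/+ kidneys. Their part in the members' values was not tested, but after scaling to equal non-mitochondrial totals 7 members were called, all higher in S74N/+ and without Ltbp4, and of all genes 608 were higher and 274 lower. Rragc itself had a mean of 146 normalized counts in +/+ and 124 in S74N/+ kidneys (log2 fold change -0.22, limma adjusted p = 0.508), which does not check the genotype, since the knock-in changes a codon and 3′ reads do not cover it. All 7 proximal tubule markers were in the table, with summed normalized counts of 32136 to 40060 in +/+ and 30276 to 39747 in S74N/+ kidneys, with Slc34a1 contributing the most. Of these 7 markers 1 passed the test (14.3%, compared with 6.03% of all tested genes). It was Slc5a2, the glucose transporter of the early proximal tubule, which fell from a mean of 845 to 415 normalized counts (log2 fold change -1.05, limma adjusted p = 0.000476).

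S74N/+ replicate 1 stood apart from the other 9 samples. Its 7 fat markers summed to 4605 normalized counts, compared with 50.9 to 1158 in the other samples, and its uroplakin and keratin markers of the urothelium summed to 393. +/+ replicate 3 (248) and S74N/+ replicate 2 (187) were next, and the remaining 7 samples had 1.75 to 40.3. S74N/+ replicate 1 was the highest of the 10 samples for 20 of the 46 members and the lowest for 7. The same counts were not made over all genes. Without these 3 samples 5 members (10.9%) passed, all higher in S74N/+ (Col1a1, Col1a2, Col3a1, Fn1 and Pdgfra), compared with 5.17% of all genes.

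**Figure D2:**
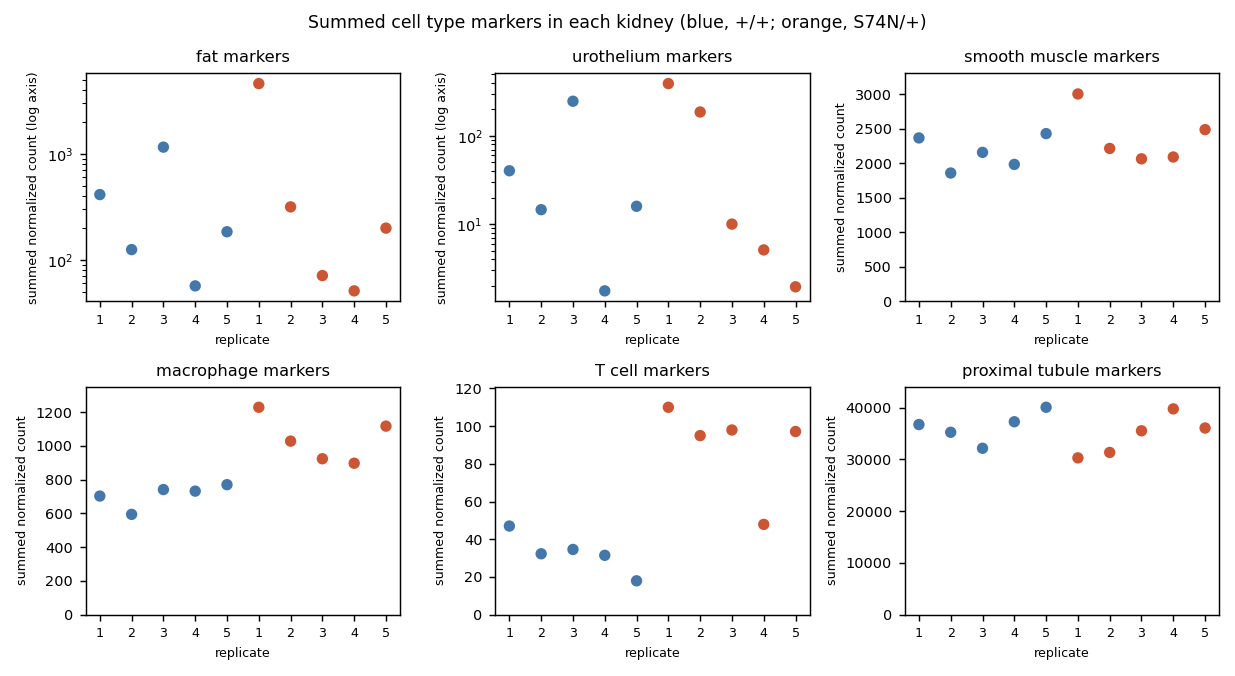
Summed normalized counts of 6 marker lists in each kidney, replicates 1 to 5 of +/+ (blue) followed by replicates 1 to 5 of S74N/+ (orange), with log axes for fat and urothelium. Fat is highest in S74N/+ replicate 1 (4605) and urothelium in S74N/+ replicate 1 (393), +/+ replicate 3 (248) and S74N/+ replicate 2 (187), and the macrophage and T cell sums of the genotypes do not overlap.

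Promoter windows of RefSeq (build GRCm38.p6, 250 bases before to 50 after the annotated start) were taken for 29 of the 46 members. They are shown for 3 members that rose and for Ltbp4, which fell. Col1a1, Fn1 and Col12a1, which also rose, had no window among these. Capitals mark CCAAT (either strand), the letters of the CCAAT box, a general promoter element. The first window is that of Col1a2, at chr6:4505368-4505667 on the plus strand, the second that of Ltbp2, at chr12:84876442-84876741 on the minus strand, the third that of Pdgfra, at chr5:75152001-75152300 on the plus strand, and the last the farthest upstream of 3 windows of Ltbp4, at chr7:27337563-27337862 on the minus strand.
Col1a2: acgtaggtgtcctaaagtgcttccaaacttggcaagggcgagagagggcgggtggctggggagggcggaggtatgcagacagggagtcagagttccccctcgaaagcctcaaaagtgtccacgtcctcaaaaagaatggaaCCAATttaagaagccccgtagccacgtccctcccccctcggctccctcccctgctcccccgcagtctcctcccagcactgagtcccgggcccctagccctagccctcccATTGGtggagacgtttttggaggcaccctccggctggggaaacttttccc
Ltbp2: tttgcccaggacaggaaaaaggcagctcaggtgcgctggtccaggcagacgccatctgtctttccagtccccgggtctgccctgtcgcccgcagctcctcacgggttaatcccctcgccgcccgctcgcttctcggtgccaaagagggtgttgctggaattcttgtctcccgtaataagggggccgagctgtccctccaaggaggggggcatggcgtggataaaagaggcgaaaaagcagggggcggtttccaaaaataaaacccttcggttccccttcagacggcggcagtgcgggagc
Pdgfra: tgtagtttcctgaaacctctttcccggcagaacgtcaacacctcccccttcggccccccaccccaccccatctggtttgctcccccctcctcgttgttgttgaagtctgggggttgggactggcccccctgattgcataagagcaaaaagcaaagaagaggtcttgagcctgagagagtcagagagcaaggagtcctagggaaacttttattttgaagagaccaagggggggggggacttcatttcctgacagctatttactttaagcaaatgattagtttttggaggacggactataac
Ltbp4: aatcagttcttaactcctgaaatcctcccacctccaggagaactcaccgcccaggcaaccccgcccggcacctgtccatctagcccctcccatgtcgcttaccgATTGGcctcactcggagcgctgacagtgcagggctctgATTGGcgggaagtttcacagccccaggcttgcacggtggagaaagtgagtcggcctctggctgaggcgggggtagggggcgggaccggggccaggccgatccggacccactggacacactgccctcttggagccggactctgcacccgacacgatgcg
CCAAT was found in windows of 10 of the 29 members (10 of 36 windows, 27.8%), compared with 37.4% of all 32851 windows. Of the 3 members shown that rose, Col1a2 held it at 2 places and Ltbp2 and Pdgfra at none. The Ltbp4 window shown also held it at 2 places, and the other Ltbp4 windows, not shown, held none. The other letters searched on both strands were TATAAA (the TATA box, 11.1% of the members' windows and 13.6% of all), CACGTG (an E-box that is the core of the site bound by Tfeb and Tfe3, 5.56% and 7.15%) and TGANTCA (the AP-1 site, 2.78% and 7.81%). The CArG box, the site of serum response factor, was searched only as CCWWWWWWGG (W for A or T). These exact letters were in 0 of the 36 windows and in 1.63% of all. Sites that differ from them, as some working CArG boxes do, were not searched. The 0 therefore does not show that the members, Acta2 among them, lack such a site. Among these members CACGTG was found in the windows of Fbln1 alone.

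Fibrillar collagens were addressed first. Type I collagen is a trimer of 2 chains from Col1a1 and 1 from Col1a2. Col1a1 was at 185, 178, 216, 153 and 170 normalized counts in +/+ replicates 1 to 5, and at 369, 404, 312, 425 and 579 in S74N/+ replicates 1 to 5. Every S74N/+ kidney was above every +/+ kidney. The log2 fold change was 1.19 (SE 0.15, 95% interval 0.86 to 1.51, limma adjusted p = 0.00047), and it passed in all 10 fits that left out 1 sample. Col1a2 was at 289, 410, 454, 327 and 376 in +/+ and at 546, 553, 461, 428 and 698 in S74N/+ kidneys. The ranges overlapped through S74N/+ replicate 4, which was below +/+ replicate 3. The Col1a2 log2 fold change was 0.53 (SE 0.15, 95% interval 0.21 to 0.85, limma adjusted p = 0.0488). It lost the threshold without any of +/+ replicates 1, 2, 4 and 5 and S74N/+ replicates 2 and 5 (0.43 to 0.61 over the 10 fits), and with the range of the title numbers as a term (limma adjusted p = 0.0546). Within each kidney the log2 ratio of Col1a1 to Col1a2 was -1.20 to -0.64 in +/+ and -0.56 to -0.01 in S74N/+, a mean difference of 0.66.

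Col3a1, the chain of the type III collagen that runs with type I in the interstitium, lay just outside the threshold. It was at 68.2 to 132 normalized counts in +/+ and 120 to 189 in S74N/+ kidneys (log2 fold change 0.70, 95% interval 0.27 to 1.12, limma adjusted p = 0.0505). Col5a1 and Col5a2, the chains of the type V collagen that nucleates fibrils, had estimates of -0.02 (95% interval -0.46 to 0.42) and 0.02 (-0.46 to 0.51). These intervals leave out a change of the size measured for Col1a1.

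Of the 9 other interstitial collagens, 1 passed the test (11.1%, compared with 6.03% of all tested genes). Col12a1 encodes a collagen that sits on the surface of type I fibrils. It was at 2.24, 6.24, 19.2, 14.0 and 19.9 normalized counts in +/+ and at 47.6, 36.8, 20.0, 26.5 and 35.9 in S74N/+ kidneys. The genotypes did not overlap, but +/+ replicate 5 and S74N/+ replicate 3 lay next to each other. The Col12a1 log2 fold change was 1.61 (SE 0.46, 95% interval 0.64 to 2.58, limma adjusted p = 0.0484). It passed in 3 of the 10 fits that left out 1 sample, those without +/+ replicate 3, +/+ replicate 5 or S74N/+ replicate 3, and ranged from 1.17 to 1.85 over all 10. The other 8, which include the type VI collagen chains around cells and the basement membrane collagens Col15a1 and Col18a1, had log2 fold changes from -0.16 (Col6a3) to 0.49 (Col15a1), 4 above and 4 below 0.

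The elastic fiber and microfibril genes moved in both directions. Of 8 tested, 1 rose and 1 fell (25%, compared with 6.03% of all tested genes). With 8 genes such a share does not set this group apart from all genes. Both belong to the family named latent TGFβ binding proteins, a name that does not mean that each member binds latent TGFβ. Ltbp2, which attaches to fibrillin microfibrils, was at 6.71, 9.36, 4.80, 3.49 and 3.98 normalized counts in +/+ and at 50.4, 18.4, 13.0, 13.2 and 19.4 in S74N/+ kidneys. Every S74N/+ kidney was above every +/+ kidney, with S74N/+ replicate 1 far above the rest. The Ltbp2 log2 fold change was 1.72 (SE 0.41, 95% interval 0.84 to 2.60, limma adjusted p = 0.0239). Without S74N/+ replicate 1 it was 1.40 (limma adjusted p = 0.0536), and the threshold was also missed without +/+ replicate 4 (0.058) or S74N/+ replicate 5 (0.0563). Ltbp4, which presents latent TGFβ and is needed for elastic fiber assembly, was at 58.2, 86.3, 68.2, 73.4 and 70.6 in +/+ and at 36.4, 36.8, 53.0, 49.9 and 49.5 in S74N/+ kidneys. Here every S74N/+ kidney was below every +/+ kidney. The Ltbp4 log2 fold change was -0.66 (SE 0.18, 95% interval -1.04 to -0.27, limma adjusted p = 0.0422). It passed in 1 of the 10 fits that left out 1 sample (without S74N/+ replicate 3), with -0.73 to -0.58 over the 10, and did not pass with equal library totals. The log2 ratio of Ltbp2 to Ltbp4 was -4.05 to -2.94 in +/+ and -1.95 to 0.46 in S74N/+ kidneys.

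None of the other elastic fiber genes passed limma's threshold, although DESeq2 called Fbln1. At an unadjusted p under 0.05 there were 5 of all 8, compared with 25.4% of all genes. Fbln1, a fibulin found with elastic fibers and basement membranes, had a log2 fold change of 0.99 (limma adjusted p = 0.0665), and Fbln5, a fibulin that tethers elastic fibers to cells, of -0.56 (limma adjusted p = 0.101). Elastin itself (Eln) had 0.63 (adjusted p = 0.205) and fibrillin-1 (Fbn1), the backbone of microfibrils, 0.54 (adjusted p = 0.154, limma). Mfap5 had 1.11 with a 95% interval from -0.01 to 2.23, and its S74N/+ values ran from 8.15 to 72.7, the highest in S74N/+ replicate 1. Emilin1, a glycoprotein at the elastin and microfibril interface, had -0.19.

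**Figure D3:**
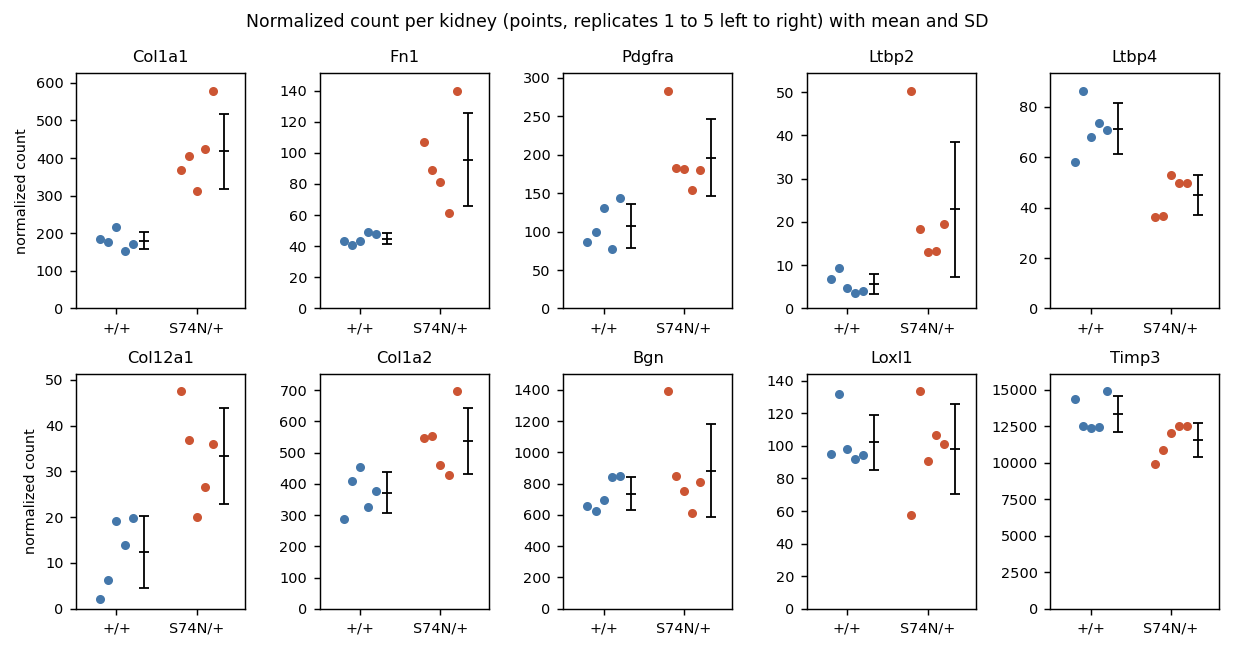
Normalized count in each kidney for the 7 members past the threshold and for Bgn, Loxl1 and Timp3, with points for replicates 1 to 5 from left to right and bars for mean and SD (n = 5 per genotype). The genotypes do not overlap for Col1a1, Fn1, Pdgfra, Ltbp2, Ltbp4 and Col12a1, and they overlap for Col1a2, Bgn, Loxl1 and Timp3.

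No proteoglycan of the 5 tested passed the threshold, compared with 6.03% of all tested genes. At an unadjusted p under 0.05 there were 0 of the 5, compared with 25.4% of all genes, and edgeR and DESeq2 called none. With 5 genes such counts do not set this group apart from all genes. Biglycan (Bgn), a small leucine-rich proteoglycan that binds collagen and TGFβ, had the highest mean of this group. It was at 660, 622, 698, 845 and 851 normalized counts in +/+ and at 1392, 851, 752, 609 and 812 in S74N/+ kidneys. The genotypes overlapped apart from S74N/+ replicate 1 (log2 fold change 0.22, 95% interval -0.16 to 0.59, limma adjusted p = 0.463), and without the 3 samples with the most urothelial markers the estimate was -0.036. Decorin (Dcn), which regulates fibril diameter, was at 818 in S74N/+ replicate 1 and at 146 to 327 in the other 4 S74N/+ kidneys, compared with 146 to 396 in +/+ kidneys. Versican (Vcan), a large hyaluronan-binding proteoglycan, was at 114 in S74N/+ replicate 1 and 46.1 in +/+ replicate 3, with 0 to 23.9 elsewhere. In 8 of the 46 members (Col6a1, Col18a1, Fbln1, Lum, Dcn, Vcan, Sparcl1 and Tnc) the highest +/+ kidney was replicate 3 and the 2 highest S74N/+ kidneys were replicates 1 and 2, the same 3 samples that had the most urothelial markers. The part of these markers in the members' values was not tested further.

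**Figure D4:**
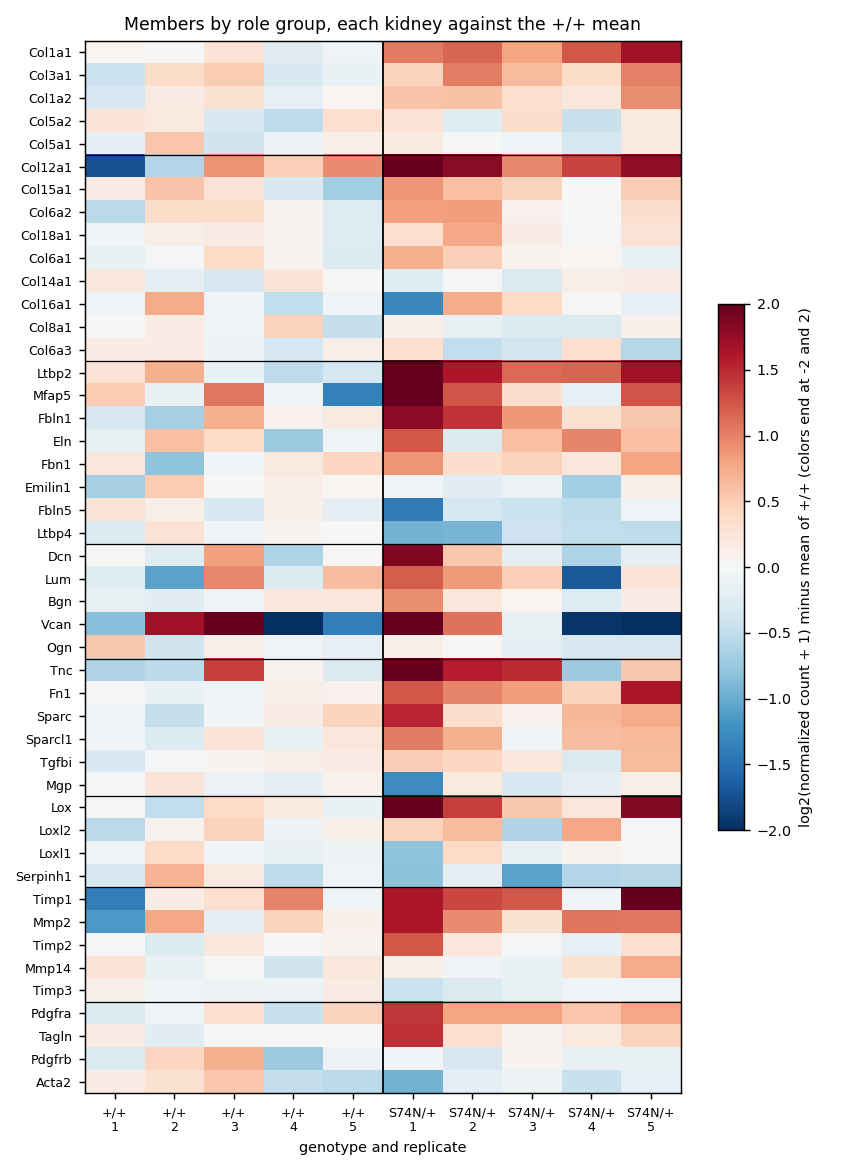
Log2(normalized count + 1) of each member in each kidney minus the mean of the +/+ kidneys, with rows grouped by role (separated by lines) and columns by genotype and replicate. Col1a1, Fn1 and Ltbp2 are above the +/+ mean in all 5 S74N/+ kidneys, and Dcn and Vcan are highest in S74N/+ replicate 1 with +/+ replicate 3 the highest of its genotype.

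Of 6 adhesive and matricellular glycoproteins tested, Fn1 alone passed and rose (16.7%, compared with 6.03% of all tested genes). Fn1 encodes fibronectin, the glycoprotein on which collagen fibrils assemble. It was at 43.6, 40.6, 43.2, 48.9 and 47.8 normalized counts in +/+ and at 107, 89.2, 81.0, 61.1 and 140 in S74N/+ kidneys. The +/+ kidneys lay within a narrow range, and the lowest S74N/+ kidney was above all of them. The Fn1 log2 fold change was 1.03 (SE 0.20, 95% interval 0.60 to 1.45, limma adjusted p = 0.00896), and it passed in all 10 fits that left out 1 sample. Sparc, which binds collagen and modulates its deposition, had a log2 fold change of 0.67 (limma adjusted p = 0.0786), and its relative Sparcl1 had 0.59 (limma adjusted p = 0.0728). Tnc, a glycoprotein induced at sites of repair, had 1.06 with a 95% interval from -0.03 to 2.15. Tgfbi had 0.29, and Mgp, an inhibitor of calcification, had -0.29.

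None of the 4 crosslinking enzymes and collagen chaperones passed limma's threshold, compared with 6.03% of all tested genes. At an unadjusted p under 0.05 there were 2, compared with 25.4% of all genes, and edgeR and DESeq2 called Lox. Lox, the founding lysyl oxidase, was at 12.3, 8.32, 16.3, 14.0 and 10.9 normalized counts in +/+ and at 59.7, 33.0, 18.0, 14.3 and 45.7 in S74N/+ kidneys. S74N/+ replicate 4 lay inside the +/+ range and the other 4 above it (log2 fold change 1.24, 95% interval 0.46 to 2.01, limma adjusted p = 0.0567). Loxl1, the lysyl oxidase of elastic fibers and the highest of this group, was at 95.1, 132, 97.9, 91.7 and 94.5 in +/+ and at 57.8, 134, 91.0, 107 and 101 in S74N/+ kidneys. The Loxl1 genotypes overlapped, with a log2 fold change of -0.10 (95% interval -0.52 to 0.33, limma adjusted p = 0.806). Loxl2 had 0.25, and Serpinh1, the collagen chaperone Hsp47, had -0.64 (limma adjusted p = 0.137).

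None of the 5 proteases and inhibitors passed limma's threshold either, compared with 6.03% of all tested genes. At an unadjusted p under 0.05 there were 2, compared with 25.4% of all genes, and DESeq2 called Timp1. Timp3, an inhibitor that stays bound to the matrix, had the most reads of all 46 members, at 14369, 12496, 12355, 12430 and 14906 normalized counts in +/+ and at 9891, 10834, 12030, 12518 and 12500 in S74N/+ kidneys. The genotypes overlapped (log2 fold change -0.21, 95% interval -0.46 to 0.05, limma adjusted p = 0.301). The secreted inhibitor Timp1 had 1.27 (95% interval 0.27 to 2.28, limma adjusted p = 0.111), from 2.24 to 15.7 in +/+ and 7.13 to 37.9 in S74N/+ kidneys. The gelatinase Mmp2 had means of 12.3 in +/+ and 24.3 in S74N/+ kidneys (95% interval of the log2 fold change 0.22 to 1.79, limma adjusted p = 0.11), and Mmp14, a membrane-bound activator of Mmp2, had 0.20. Timp2, which takes part in that activation, had 0.32 and was at 4892 in S74N/+ replicate 1, compared with 1851 to 2576 in the other 4.

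Among the cell markers, the fibroblast receptor and the pericyte receptor of the PDGF family differed in their estimates. Pdgfra was at 86.1, 99.9, 131, 76.8 and 144 normalized counts in +/+ and at 283, 182, 182, 154 and 180 in S74N/+ kidneys. Every S74N/+ kidney was above every +/+ kidney. The Pdgfra log2 fold change was 0.87 (SE 0.20, 95% interval 0.45 to 1.29, limma adjusted p = 0.0183). Without +/+ replicate 1, 2 or 4 it was 0.80, 0.85 and 0.76 (limma adjusted p = 0.0563, 0.0507 and 0.0516), and without S74N/+ replicate 1, the highest, it was 0.73 (adjusted p = 0.0151). Pdgfrb, which marks pericytes and many fibroblasts, had -0.13 (95% interval -0.65 to 0.40), and the log2 ratio of Pdgfra to Pdgfrb was 0.69 to 1.76 in +/+ and 1.89 to 2.67 in S74N/+ kidneys. Acta2 (smooth muscle actin, a marker of myofibroblasts and vessel walls) had -0.37 (95% interval -0.83 to 0.09, limma adjusted p = 0.294). Tagln (transgelin, an actin-binding protein of the same cells) had 0.50 (limma adjusted p = 0.139), with S74N/+ replicate 1 at 1022 and the other 4 at 386 to 505. The summed smooth muscle markers overlapped, at 1857 to 2428 in +/+ and 2062 to 3002 in S74N/+ kidneys, the highest again in S74N/+ replicate 1.

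**Figure D5:**
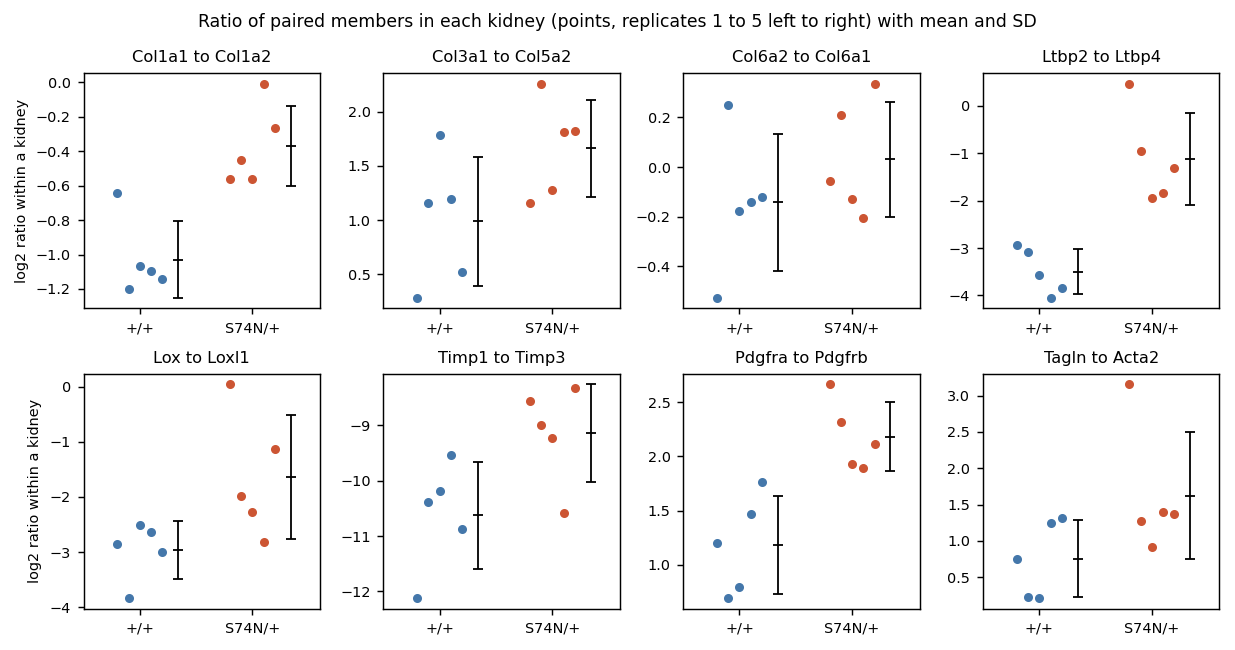
Log2 ratio of the normalized counts (each + 1) of 8 pairs of members within each kidney, with points for replicates 1 to 5 from left to right and bars for mean and SD (n = 5 per genotype). The genotypes do not overlap for Col1a1 to Col1a2, Ltbp2 to Ltbp4 and Pdgfra to Pdgfrb, and they overlap for the other 5 pairs.

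The 8 pairs in the ratio plot were chosen after the values were seen and are given without a test. Beyond the 3 above, Lox to Loxl1 differed by a mean of 1.33, Timp1 to Timp3 by 1.48, Tagln to Acta2 by 0.87, Col3a1 to Col5a2 by 0.67 and Col6a2 to Col6a1 by 0.17, all with overlapping genotypes. A shift in a ratio gives how far the changes of 2 genes differ and not their amounts. The 2 genes may share a direction, as Col1a1 and Col1a2 did.

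Of 93 related genes in the same roles, 64 were tested and 10 passed (15.6%), 7 higher and 3 lower, with a median log2 fold change of 0.28, compared with 6.03% of all tested genes called and a median of -0.01. Among collagen modifying enzymes, 1 of 15 passed, Pcolce, the enhancer of procollagen C-terminal cleavage, which fell by 0.50 on the log2 scale (limma adjusted p = 0.0141). Of 17 other proteoglycans and glycoproteins, 5 passed, and the 3 with the lowest adjusted p were Ecm1, Cd44 and Thbs1. The others that passed, both higher, were Podn (log2 fold change 0.78, limma adjusted p = 0.0328) and Thbs2 (1.44, limma adjusted p = 0.0395). Ecm1, a secreted matrix glycoprotein, fell from 308 to 168 mean normalized counts (log2 fold change -0.87, limma adjusted p = 0.00625). The hyaluronan receptor Cd44 rose from 11.7 to 33.4 (1.44, limma adjusted p = 0.0089), and Thbs1, thrombospondin-1, an activator of latent TGFβ, rose from 99.2 to 190 (0.87, limma adjusted p = 0.0186). Of 15 other fibroblast and pericyte genes, 3 rose. They were Rgs5, a pericyte marker (0.83, limma adjusted p = 0.00426), Cald1, an actin-binding protein of contractile cells (0.66, limma adjusted p = 0.00769), and Fstl1, a secreted glycoprotein of mesenchymal cells (0.75, limma adjusted p = 0.0151). Estimates were above 0 for 13 of the 15 and below 0 for 2, Igfbp7 (-0.49, limma adjusted p = 0.0769) and Tcf21 (-1.96, limma adjusted p = 0.0747). Tcf21 was lower in every S74N/+ kidney than in any +/+ kidney (means 36.3 in +/+ and 12.4 in S74N/+). Of 7 other proteases and inhibitors, the lysosomal protease Ctsb fell by 0.39 on the log2 scale (limma adjusted p = 0.0354). The other interstitial collagens (0 of 3) and the other elastic fiber genes (0 of 7) held no called gene. At an unadjusted p under 0.05 there were 0 and 1, compared with 25.4% of all genes.

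Markers of other cell types also differed by genotype beside these genes. The 9 macrophage markers in the table summed to 594 to 770 normalized counts in +/+ and 897 to 1229 in S74N/+ kidneys, with Csf1r contributing the most. Of these 9, 2 passed (C1qb and Lyz2, both higher). Estimates were above 0 for 7 of the 9 and below 0 for 2, C1qc (log2 fold change -0.48, limma adjusted p = 0.309) and Cd68 (-0.34, limma adjusted p = 0.598). The 5 T cell markers summed to 17.9 to 47.0 in +/+ and 47.9 to 110 in S74N/+ kidneys, with 1 past the threshold (Trbc1). The 5 podocyte markers summed to 697 to 816 in +/+ and 831 to 1048 in S74N/+ kidneys, again without overlap, and 1 of them passed (Synpo, log2 fold change 0.45, limma adjusted p = 0.0471). The summed endothelial markers overlapped, at 2004 to 2313 in +/+ and 1970 to 2503 in S74N/+ kidneys. Of these 9 markers 1 passed, Plvap, the diaphragm protein of fenestrated endothelium, which fell by 0.93 on the log2 scale (limma adjusted p = 0.00879). Endothelial estimates were above 0 for 6 of the 9 and below 0 for 3. Of all tested genes 6.03% were called. Cd44 and Fn1 are also transcribed by leukocytes, and the part of these cell types in the members' values was not tested. Fat markers overlapped between genotypes, at 56.8 to 1158 in +/+ and 50.9 to 4605 in S74N/+ kidneys, and none of the 6 tested passed limma's threshold or an unadjusted p of 0.05.

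The samples fall into those with title numbers under 200 (3 per genotype) and over 200 (2 per genotype), and the labels do not say what the numbers mark. The Col1a1 log2 fold change was 0.90 under 200 (limma adjusted p = 0.0736) and 1.61 over 200 (adjusted p = 1.04e-06). Fn1 had 1.096 and 0.923, Pdgfra 1.01 and 0.65, Ltbp2 1.64 and 1.85, Col12a1 2.12 and 0.85, Col1a2 0.46 and 0.64, and Ltbp4 -0.74 and -0.52. All 7 kept their direction within both ranges. For the 6 whose genotypes do not overlap in any sample this was fixed in advance. The 7 were also picked from these same samples, so their shared direction is no separate check. The number called was 0 under 200, compared with 0.348% of all genes, and 3 (6.52%) over 200 (Col1a1, Col1a2 and Col3a1), compared with 4.66% of all genes. These were limma fits of 6 and 4 samples. At an unadjusted p under 0.05 there were 17 and 11 of the 46 members, compared with 2604 and 2408 of the 13236 genes tested. With the range as a term in the fit of all 10 samples, 6 members (13.0%) passed, compared with 6.5% of all genes, all of the 7 but Col1a2.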

How the data were processed

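Total RNA (300 ng per kidney) was made into stranded 3′ end libraries and sequenced by the authors. Per the labels and the submitters' processing notes, reads were checked with FastQC 0.11.7, aligned to GRCm39 with TopHat2 2.0.10 (Bowtie 1.0.0, SAMtools 0.1.19), counted per gene with HTSeq 0.6.1 and divided by DESeq2 size factors. The deposited signal values are these normalized counts, and at a tolerance of 1e-06 100% of the values in all 10 samples came out as whole reads.

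Log2(normalized count + 1) was fitted with limma 3.58.1 (eBayes with variance trend, R 4.3.3), two-sided, with genotype alone and Benjamini-Hochberg adjustment over 13236 genes at 0.05. edgeR 4.0.16 called 834 genes on the recovered reads, and DESeq2 1.42.0 was run on them too. The scripts were tested on simulated data.

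Values per kidney are given for each member past the threshold, and for the member with the highest mean in each role group without one. Related genes are described where they passed, at most 3 per list, and Podn, Thbs2, Igfbp7 and Tcf21 are given beside them. The members, lists and alternatives were chosen with earlier results of these data known.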

Additional observations from a re-analysis of the deposited data

Results flagged for a closer look

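Dixon's test at 95% (critical value 0.71 for 5 samples) was applied within each genotype to 56 quantities, in 112 groups. It marked 14 values, 12 of them the highest of their group, and 8 of the 14 were of S74N/+ replicate 1. For normally distributed values 5.6 would be marked by chance alone. That distribution was not checked, and the quantities are not independent, since the ratios are made from members. The 14 and the 5.6 are therefore not a test of an excess.

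S74N/+ replicate 1 was the highest of its genotype for Ltbp2 (50.4 normalized counts, compared with 13.0 to 19.4 in the other 4), Mfap5 (72.7, compared with 8.15 to 23.3), Dcn (818, compared with 146 to 327), Vcan (114, compared with 0 to 15.5), Timp2 (4892, compared with 1851 to 2576), Pdgfra (283, compared with 154 to 182) and Tagln (1022, compared with 386 to 505). Its log2 ratio of Tagln to Acta2 was 3.16, compared with 0.92 to 1.40 in the other 4. Of the 10 samples it also had the highest summed markers of fat (4605), urothelium (393), smooth muscle (3002), macrophages (1229), T cells (110), endothelium (2503) and mesothelium (245), and the lowest of the proximal tubule (30276), and their part in these values was not tested.

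+/+ replicate 2 was the highest of its genotype for Col16a1 (103, compared with 42.8 to 57.7) and Loxl1 (132, compared with 91.7 to 97.9). +/+ replicate 3 was the highest for Tnc (33.6, compared with 7.83 to 13.1), and had the lowest sum of normalized counts (4576640, compared with 5001060 to 5087150) and the lowest mitochondrial share (35.8%, compared with 37.4 to 38.0%). +/+ replicate 1 had the highest log2 ratio of Col1a1 to Col1a2 among +/+ kidneys (-0.64, compared with -1.20 to -1.07).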

How the results depend on the processing

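Col1a1 and Fn1 passed in every fit that left out 1 sample. Leaving out 1 sample gave 2 to 10 members, 6 to 11 related genes and 311 to 902 genes called, with the fewest members without +/+ replicate 4 and 3 members without +/+ replicate 1 or 2 or S74N/+ replicate 5. Without the variance trend 3 members and 391 genes were called. DESeq2 called 13 members and 1354 genes, adding Col3a1, Fbln1, Lox, Sparc, Sparcl1 and Timp1. Among samples with title numbers under 200, 0 members, 0 related genes and 46 genes were called by limma. At an unadjusted p under 0.05 there were 17 of 46 members and 18 of 64 related genes, compared with 2604 of all 13236 genes. Among samples over 200, 3 members, 5 related genes and 617 genes were called. At a threshold of 0.01, 2 members, 4 related genes and 187 genes remained. Equal library totals moved the median of all genes from -0.01 to 0.06. The causes were not tested.

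Some estimates outside the threshold changed sign. With equal library totals these were Col5a1 (0.058), Col14a1 (0.024), Col16a1 (0.019) and Vcan (0.040), and with equal non-mitochondrial totals Col5a1 (0.021) and Vcan (0.0089). Vcan was 0.13 with a pseudocount of 5, 0.86 by edgeR and 0.84 by DESeq2, where Col16a1 was 0.035 and 0.026. Under 200 Col5a1 was 0.031, Vcan 0.46 and Mmp14 -0.077. Over 200 Col5a2 was -0.052, Col16a1 0.22, Lum -0.88, Dcn -0.12, Bgn -0.27, Mgp 0.022, Loxl1 0.16, Pdgfrb 0.27 and Acta2 0.20. Without the 3 samples with the most urothelial markers, an alternative chosen after seeing the data, Col5a2 was -0.050, Col16a1 0.065, Lum -0.072, Dcn -0.13, Bgn -0.036 and Pdgfrb 0.092. Leaving out 1 sample gave ranges across 0 for Col5a1 (-0.12 to 0.12), Col5a2 (-0.10 to 0.14), Col8a1 (-0.22 to 0.0088), Col14a1 (-0.14 to 0.011), Col16a1 (-0.26 to 0.25), Lum (-0.040 to 0.70), Dcn (-0.11 to 0.51), Vcan (-0.99 to 0.72), Loxl1 (-0.22 to 0.080) and Pdgfrb (-0.31 to 0.049).

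No paired analysis was possible because the labels carry no replicate number that samples of the 2 genotypes share. At this depth members with few reads, such as Lum and Vcan, had wide intervals.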
